A study of Mus musculus with 8 samples.

Results

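The genes described here are Il13 and Il5 on chromosome 11, Rad50, which lies between them, Kif3a, which lies beside them, Il9 on chromosome 13 and Gata3 on chromosome 2. They are 6 of the 19330 genes in the deposited count table, taken from it by symbol. They were chosen by measured values, the difference of the cytokines between the treatment groups and its absence in Gata3 and in the genes around them, so that difference is given as a description, with no test. RNA was sequenced from cultures in which naive splenic CD4+ T cells of B6 mice had been turned into regulatory T cells (Tregs) over 3 days. The 4 control libraries came from cells cultured without oxPAPC, a mixture of oxidized phospholipids obtained by oxidizing the phospholipid PAPC, and the 4 oxPAPC libraries from cells cultured with it. No allele, transgene or sort is named in the labels of either group. Whether the replicates are separate mice or cultures is not stated in the labels; the p-values therefore reflect the spread among these libraries alone, which may be technical.

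Interleukin 4, interleukin 5 and interleukin 13 are the cytokines of type 2 immunity, made by Th2 cells, innate lymphoid cells, mast cells and basophils. Their genes share one stretch of mouse chromosome 11 with Rad50, a DNA repair gene whose introns hold a locus control region for the cytokine genes, and with Kif3a, which encodes a motor protein of cilia and transport. GATA3 is the transcription factor that opens this locus in Th2 cells, and it is also made by other T cells, Tregs among them. Interleukin 9 is made from a gene elsewhere, by Th9 cells, mast cells and innate lymphoid cells, under IRF4, BATF, PU.1 and STAT proteins.

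The locus runs, in GRCm38 coordinates and in order, from Kif3a (11:53567379-53601967, plus strand) through Il4, Il13 (11:53631324-53634702, minus strand) and Rad50 (11:53649519-53707319, minus strand) to Il5 (11:53720794-53725106, plus strand), 158 kb in all. The gap between Il13 and Rad50 was 14.8 kb and that between Rad50 and Il5 was 13.5 kb. Il9 lies at 13:56479277-56482246 and Gata3 at 2:9857078-9890034, both on the minus strand.

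The 250 bases before the start sites of Il13, Il5 and Il9, whose levels differed between the groups, and of Kif3a, whose levels overlapped, are shown for comparison. They come from RefSeq's GRCm38.p6 annotation, which held a start site for 5 of the 6 genes (Rad50 had no entry), and read 5′ to 3′ on the strand of the gene. Gata3, whose levels also overlapped, had a start site but is not shown, so the comparison rests on Kif3a alone. Capitals mark GATA, the core letters bound by GATA factors, and GGAAA, the core letters bound by NFAT factors, each on either strand (TATC and TTTCC on the other).
Il13 (chr11:53634703-53634952, minus strand): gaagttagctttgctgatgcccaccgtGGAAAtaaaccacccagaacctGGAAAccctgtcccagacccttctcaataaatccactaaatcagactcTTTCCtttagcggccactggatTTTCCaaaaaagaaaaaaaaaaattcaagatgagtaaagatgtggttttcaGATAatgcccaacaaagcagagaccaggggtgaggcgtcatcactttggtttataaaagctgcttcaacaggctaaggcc
Il5 (chr11:53720544-53720793, plus strand): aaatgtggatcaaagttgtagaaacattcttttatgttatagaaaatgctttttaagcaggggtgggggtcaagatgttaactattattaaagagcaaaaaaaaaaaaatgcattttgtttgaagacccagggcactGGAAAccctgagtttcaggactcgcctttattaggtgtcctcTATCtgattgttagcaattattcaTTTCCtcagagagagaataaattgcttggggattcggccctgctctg
Il9 (chr13:56482258-56482507, minus strand): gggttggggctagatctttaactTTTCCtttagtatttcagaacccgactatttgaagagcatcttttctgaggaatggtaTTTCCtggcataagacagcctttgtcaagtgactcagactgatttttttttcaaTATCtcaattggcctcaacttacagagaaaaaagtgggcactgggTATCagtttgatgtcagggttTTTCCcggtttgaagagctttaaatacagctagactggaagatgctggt
Kif3a (chr11:53567119-53567368, plus strand): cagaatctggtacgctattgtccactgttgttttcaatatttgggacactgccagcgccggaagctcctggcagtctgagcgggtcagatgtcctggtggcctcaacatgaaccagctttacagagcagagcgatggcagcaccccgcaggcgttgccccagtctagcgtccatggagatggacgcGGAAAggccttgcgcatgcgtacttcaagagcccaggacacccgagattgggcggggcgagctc

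GATA matched once in each of Il13 and Il5, in 2 places in Il9 and in 0 places in Kif3a, and 53.6% of 32851 windows of the same length before RefSeq start sites held it. GGAAA matched 4 times in Il13, 2 times in Il5, 3 times in Il9 and once in Kif3a, against 55.6% of all windows with a match. The GATA match nearest the start site began 80 bases before it in Il13, 71 in Il5 and 70 in Il9, counted on the strand shown. The letters TGANTCA, bound by AP-1 factors, were found once, in Il9, and are held by 6.75% of all windows. TATAAA, the letters of a TATA box, was searched on the strand shown alone, was found once, in Il13, and is held by 7.59%. None of these matches overlapped another. A match of so few letters is a description of the sequence and does not show that a factor binds there.

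Values below are counts scaled to a common library size by the TMM method (CPM), and log2 fold changes are oxPAPC over control. The libraries held 14017583 to 21619731 counts, and 16434 genes passed the filter on low counts. In CPM, Foxp3, the lineage factor of Tregs, ranged from 117 to 200 in control and from 88.5 to 211 in oxPAPC libraries. Of 6 T cell and Treg markers 0 passed edgeR's test (1, Il2ra, at an unadjusted p under 0.05 and with DESeq2), where 13.3% of all tested genes passed. So few genes do not show that these markers were unchanged. The noncoding gene Gm26917 made up 8.59% to 29.1% of each library, and leaving it out together with Rn7sk moved no value of the 6 genes by more than the spread between replicates. Each library is bulk RNA, in which more cells of a type and more RNA per cell cannot be told apart.

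Il13 and Il5 had few counts in the control libraries and more in every oxPAPC library. Il13, whose product drives mucus, airway and tissue responses of type 2 immunity, had 12, 7, 11 and 19 counts in control replicates 1 to 4 and 229, 141, 587 and 507 in oxPAPC replicates 1 to 4. In CPM these were 0.798, 0.528, 0.503 and 0.874 in control libraries and 17.1, 9.32, 25.9 and 25.7 in oxPAPC libraries. The groups did not overlap, and the lowest oxPAPC library, replicate 2, stood 10.7-fold above the highest control library. The log2 fold change of Il13 was 4.83 ± 0.35 (SE), and 2 of the 16434 tested genes had a larger one.

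Il5, whose product is the growth and survival factor of eosinophils, was lower throughout. It had 1, 1, 5 and 3 counts in control replicates 1 to 4, and 35, 28, 54 and 58 counts in oxPAPC replicates 1 to 4. The exact 95% Poisson interval, which covers counting error only, of a single count is 0.0253 to 5.57, so the order of the control libraries cannot be read. On the CPM scale the control libraries had 0.0665, 0.0755, 0.228 and 0.138 and the oxPAPC libraries 2.61, 1.85, 2.38 and 2.94, with no overlap. The summed counts of 10 and 175, scaled for library size, gave a ratio of 17.7 with an exact 95% interval of 9.42 to 37.7 for counting error, and the fitted log2 fold change was 4.09 ± 0.40 (SE). Il5 reached the level the filter asks for, 0.575 CPM by library size, in 4 oxPAPC and 0 control libraries, and Il13 in 4 and 2, so both were tested because of the group in which they are high. The ratio of Il13 to Il5 per kb of exon ranged from 2.81 to 15.3 in control and from 6.42 to 13.9 in oxPAPC libraries.

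Il9, a growth factor of mast cells and T cells, was detected in both groups. Control replicates 1 to 4 had 3.33, 0.83, 3.52 and 1.56 CPM and oxPAPC replicates 1 to 4 had 12.0, 7.93, 12.8 and 15.3 CPM. The groups did not overlap, but they lay closer than for Il13 and Il5, with the lowest oxPAPC library 2.25-fold above the highest control library. Control libraries differed among themselves by up to 4.24-fold, with replicate 2 lowest at 11 counts. The log2 fold change was 2.36 ± 0.35 (SE), and 55 tested genes had a larger one.

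Gata3 was abundant in both groups, and its libraries overlapped. Control replicates 1 to 4 had 100, 124, 128 and 142 CPM, and oxPAPC replicates 1 to 4 had 111, 124, 183 and 161 CPM. The means were 124 ± 17.4 and 145 ± 32.9 CPM (SD, n = 4 each), a log2 fold change of 0.23 ± 0.18 (SE). The 2 highest values were those of oxPAPC replicates 3 and 4, while oxPAPC replicate 1 was below 3 of the 4 control libraries. Gm13256, a noncoding gene on the opposite strand that overlaps Gata3, had 1.14 mean CPM in control and 1.54 mean CPM in oxPAPC libraries.

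Rad50 and Kif3a, the genes between and beside the cytokines, were not higher in the oxPAPC libraries. Rad50, which encodes the coiled-coil ATPase of the MRE11-RAD50-NBN complex that senses DNA breaks, had 75.0, 89.1, 82.9 and 93.2 CPM in the control and 58.9, 56.9, 75.7 and 67.7 CPM in the oxPAPC libraries. Its groups met at one point, oxPAPC replicate 3 lying just above control replicate 1, and its log2 fold change was -0.39 ± 0.14 (SE). Kif3a, a subunit of the kinesin-2 motor, had 5.72, 8.0, 6.53 and 6.35 CPM in the control and 2.99, 4.83, 7.68 and 6.19 CPM in the oxPAPC libraries. Those libraries overlapped widely, and the log2 fold change was -0.28 ± 0.26 (SE). Of the 6 genes, 3 were thus higher without overlap between the groups, where 9.5% of all tested genes were. The other 3 overlapped, so 0 were lower without overlap, where 9.86% of all tested genes were. The choice of the genes used this contrast, so nothing is read from these counts.

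**Figure D1:**
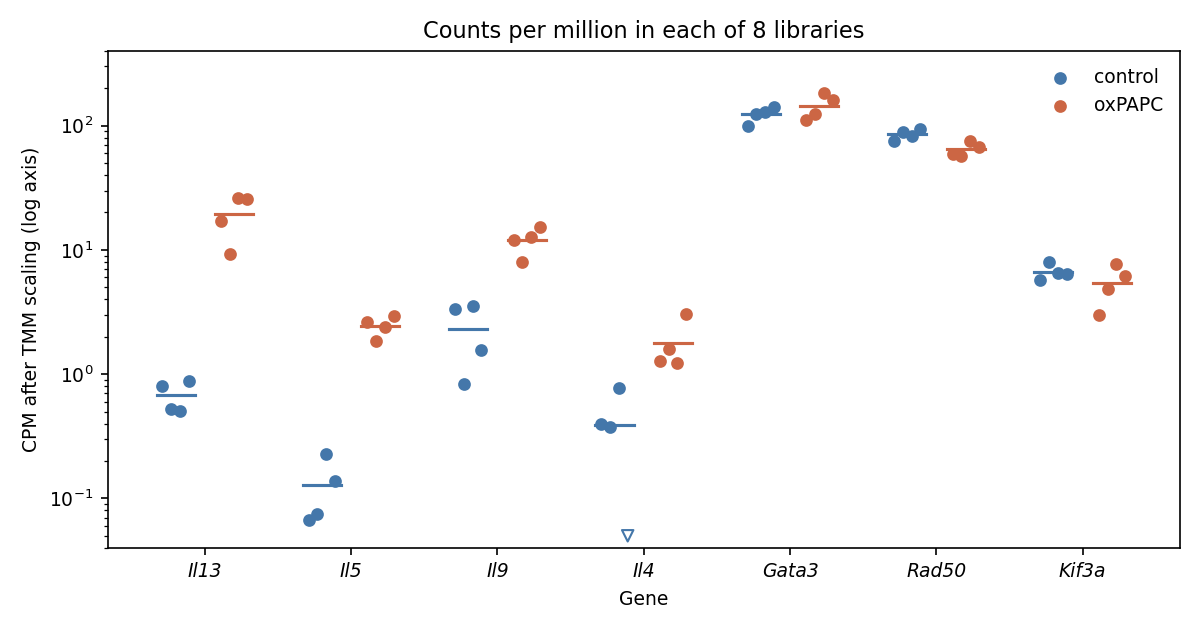
CPM after TMM scaling (log axis) for the 6 genes and Il4 in each of 4 control and 4 oxPAPC libraries, with lines at the group means and an open triangle at the foot of the axis for a library with 0 counts. Il13, Il5 and Il9 separate by group, from 0.676 to 19.5 mean CPM for Il13, while Gata3, Rad50 and Kif3a overlap.

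Set against Rad50 inside each library, per kb of exon, Il13 was above it in 3 and Il9 in 4 of the 4 oxPAPC libraries, both were below it in every control library, and Il5 was below it in all 8. Il13 had 2.64% to 4.75% of the level of Rad50 in control libraries and 73.1% to 169% in oxPAPC libraries, with replicate 2 lowest. Il5 had 0.296% to 0.963% of the level of Rad50 in control and 11% to 15.5% in oxPAPC libraries. The log2 ratio of Il9 to Rad50 went from -2.10 ± 1.09 to 0.86 ± 0.31 (SD, n = 4 each). Gata3, whose CPM overlapped, had a log2 ratio to Rad50 of 0.85 to 1.06 in control and 1.35 to 1.70 in oxPAPC libraries, with no overlap. The mean differences in log2 ratio to Rad50 were 5.18 for Il13, 4.82 for Il5, 2.96 for Il9 and 0.61 for Gata3, and to Kif3a they were 5.15, 4.79, 2.93 and 0.58. These ratios do not depend on how libraries are scaled, but they do depend on the flanking gene. Rad50 itself had a log2 fold change of -0.39 ± 0.14 (SE) and Kif3a one of -0.28 ± 0.26 (SE), which add to every difference. The log2 fold change of Gata3 in CPM was 0.23 ± 0.18 (SE), so its ratio is not read as a rise of Gata3.

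**Figure D2:**
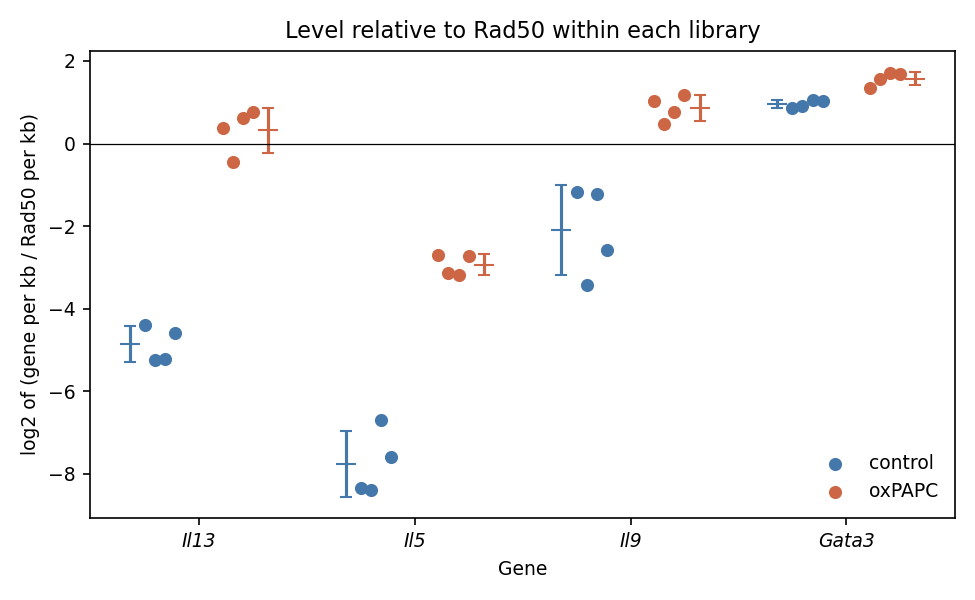
The log2 ratio of Il13, Il5, Il9 and Gata3 to Rad50, each per kb of exon, in every library, with the group mean and SD beside the points. Il13 moves from a mean of -4.86 in control to 0.32 in oxPAPC libraries, and Gata3 from 0.97 to 1.57. Rad50 itself had a log2 fold change of -0.39, which adds to each difference.

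By level per kb of exon, the order in control libraries was Gata3 (31.1 ± 4.37 CPM per kb), Rad50 (15.8 ± 1.48), Il9 (4.31 ± 2.47), Kif3a (1.85 ± 0.269), Il13 (0.561 ± 0.156) and Il5 (0.0827 ± 0.0486; SD, n = 4 each). Libraries of neighbours in this order overlapped only for Il9 and Kif3a. In oxPAPC libraries the order was Gata3 (36.3 ± 8.27 CPM per kb), Il9 (22.4 ± 5.68), Il13 (16.2 ± 6.59), Rad50 (12.1 ± 1.61), Il5 (1.59 ± 0.298) and Kif3a (1.51 ± 0.557; SD, n = 4 each). There Rad50 and Il5 were the only neighbours in the order whose libraries did not overlap.

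Within groups, the 6 genes did not all vary together. After the group means were taken off log2 CPM, Pearson's r over the 8 libraries was 0.94 for Gata3 and Rad50, 0.83 for Gata3 and Kif3a and 0.74 for Rad50 and Kif3a. For the cytokines it was 0.27 for Il13 and Il5, 0.38 for Il13 and Il9 and 0.52 for Il5 and Il9. Across the sets it was 0.62 for Il13 and Rad50 and 0.52 for Il13 and Gata3, no lower than for the cytokine pairs, and -0.03 for Il9 and Gata3. The points share the library and its scaling factor, and Il5 adds counting error in the control libraries. Of 9465 genes of at least 5 mean CPM, the closest by this measure were Jaml (r = 0.964), Aimp2 (0.958) and Arl3 (0.956) for Il13, and Srp54c (0.975), Ap1s3 (0.944) and Zwilch (0.944) for Il5. For Il9 they were Ubxn2a (0.983), Prdx1 (0.971) and Pot1a (0.967), and for Gata3 they were Ap3d1 (0.996), Golga3 (0.996) and Cyfip2 (0.992). Each is among the highest of 9465 values over 8 libraries, and none was tested against chance. With a prior count of 0.5, 2 of the 3 genes stayed for Il13 and for Il5, and all 3 for Il9 and for Gata3. Of these 12 genes, Aimp2 passed edgeR's test (log2 fold change 0.75, adjusted p = 0.0189) and the other 11 did not. The call of Aimp2 was lost without control replicate 2 (adjusted p = 0.0579 by edgeR) or oxPAPC replicate 4 (0.0542).

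Il4, the gene between Kif3a and Il13 and the signature cytokine of Th2 cells, was higher in oxPAPC libraries at a low level. It had 6, 5, 17 and 0 counts in control replicates 1 to 4 and 17, 24, 28 and 60 counts in oxPAPC replicates 1 to 4. The 0 in control replicate 4 allows up to 0.138 CPM, taking 3 counts as the upper limit of a count of 0. The groups did not overlap, with 0.388 ± 0.317 and 1.78 ± 0.854 CPM (SD, n = 4 each), and Il4 rose by 2.19 ± 0.59 on the log2 scale (SE, adjusted p = 0.0248 by edgeR). The call was lost with the replicate number as a block (adjusted p = 0.108 by edgeR) and without control replicate 1 (0.0612), control replicate 2 (0.0586) or oxPAPC replicate 4 (0.0831). Without control replicate 3, which held 17 of the 28 control counts, the log2 fold change was 2.93.

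Of the 17 tested genes within 500 kb of the interval from Kif3a to Il5, counted without the 4 genes of the locus already described, 4 were higher and 1 lower by edgeR's test, where 13.3% of all tested genes were called, 6.75% higher and 6.52% lower. Besides Il4, these were Irf1 (log2 fold change 0.96 ± 0.14 (SE), adjusted p = 0.000539 by edgeR), Gm17334 (0.87 ± 0.16 (SE), 0.00322), Mir7671 (1.68 ± 0.38 (SE), 0.0104) and Pdlim4 (-1.05 ± 0.24 (SE), 0.0109). Il4 and Mir7671 reached the level of the filter in 4 oxPAPC libraries and 1 control library each, so they were tested because of the group in which they are high. Irf1, an interferon-induced transcription factor 44.9 kb beyond Il5, had 53.6, 54.3, 62.9 and 55.3 CPM in the control and 93.9, 126, 112 and 109 CPM in the oxPAPC libraries. Gm17334 lies inside Irf1 and Mir7671 6.36 kb before its start, and reads of Gm17334 and Irf1 cannot be told apart without knowing how the counting treated strand and overlap. Pdlim4, a gene of a cytoskeletal adaptor 330 kb beyond Il5, had 4.59 ± 0.232 and 2.21 ± 0.643 CPM (SD, n = 4 each). The nearest tested gene on the other side, Sept8 (written as a date in the deposited table and named here by its identifier), lies 17.8 kb from Kif3a and did not pass (log2 fold change 0.30 ± 0.19 SE, adjusted p = 0.322 by edgeR). The median of the 17 log2 fold changes was 0.26, against -0.013 for all tested genes.

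Further along the chromosome lie Csf2 and Il3, cytokine genes 522 kb and 540 kb beyond Il5. Il3, a growth factor of mast cells and basophils, had 0.798, 0.302, 0.320 and 0.276 CPM in the control and 8.43, 5.02, 5.87 and 4.92 CPM in the oxPAPC libraries, and rose by 3.86 ± 0.35 (SE, adjusted p = 2.06e-05 by edgeR). Csf2, which encodes GM-CSF, went from 0.871 ± 0.450 to 7.86 ± 2.47 CPM (SD, n = 4 each). Il3 reached the level of the filter in 4 oxPAPC libraries and 1 control library and Csf2 in 4 and 3. Both were thus tested because of the group in which they are high. With a window of 1000 kb around the 3 loci, Csf2, Il3 and Acsl6 (log2 fold change 1.11) near the cytokine locus and Dbn1 (-1.46) near Il9 entered the count, which became 7 higher and 2 lower. That window also holds more tested genes, whose number is not given, and of all tested genes 6.75% were higher and 6.52% lower. Around Il9, 0 of 5 tested genes within 500 kb passed, where 13.3% of all tested genes were called. The nearest tested genes there were Macroh2a1 at a log2 fold change of -0.13 and Smad5 at -0.15. Around Gata3, 0 of 9 passed beside the same 13.3%, with Taf3 next to it at 0.04. Around Il9 and Gata3 the counts were also 0 at an unadjusted p under 0.05 and 0 with DESeq2.

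**Figure D3:**
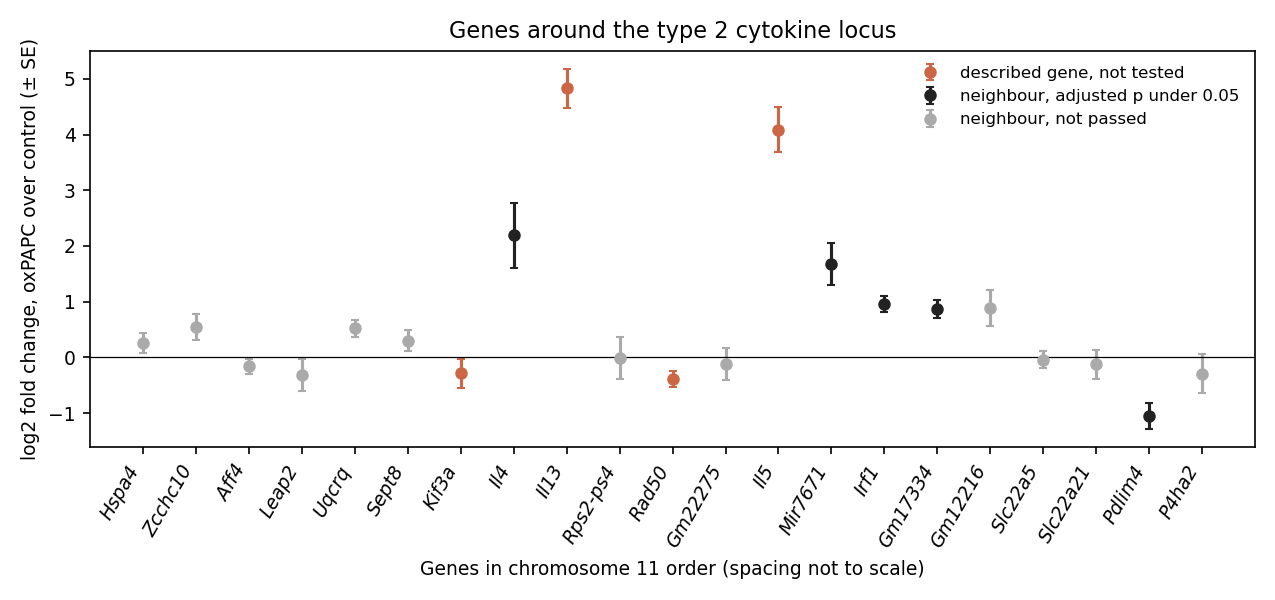
Log2 fold change, oxPAPC over control, with its SE for genes at and around the type 2 cytokine locus, in chromosome order with even spacing. Il13, Il5, Rad50 and Kif3a are given as a description with no test, and the others are tested neighbours. Il13 (4.83), Il5 (4.09) and Il4 (2.19) are high, while Rad50 (-0.39), between Il13 and Il5, and Kif3a (-0.28), next to Il4, are not.

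The other genes of the pathway were read from 9 lists of 87 genes besides the 6 described, of which 75 were in the table and 70 were tested. By edgeR's test 19 were higher, 6 lower and 45 did not pass, and the median log2 fold change was 0.06. Of all tested genes 13.3% were called, 6.75% higher and 6.52% lower. These shares stand beside each count for a list or for markers below. Of the 19, 7 reached the level of the filter in all 4 oxPAPC but not in all 4 control libraries (Csf2, Csf2rb, Havcr1, Il10, Il1rl1, Il3 and Il4), and so were tested because of the group in which they are high. Of 5 tested other cytokines 4 rose (Il3, Csf2, Il10 and Il4) and 0 fell, with a median log2 fold change of 2.19. Il10, an anti-inflammatory cytokine also made by Th2 cells, rose by 1.97 ± 0.33 (SE, adjusted p = 0.00147 by edgeR).

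Receptors of type 2 cytokines and of the alarmins that induce them went both ways. Of 10 tested cytokine receptor genes 4 rose and 1 fell, beside 6.75% higher and 6.52% lower of all tested genes. The median log2 fold change of the 10 was 0.22. Il9r, the receptor for interleukin 9, had 2.73, 1.43, 1.74 and 2.48 CPM in the control and 4.03, 3.77, 5.38 and 5.48 CPM in the oxPAPC libraries, with no overlap (log2 fold change 1.15 ± 0.26 (SE), adjusted p = 0.0101 by edgeR). Il1rl1, which encodes the interleukin 33 receptor ST2, rose by 1.44 ± 0.33 (SE, adjusted p = 0.0108 by edgeR), from 0.743 to 2.05 mean CPM. Csf2rb, the beta chain shared by the receptors for interleukin 3, interleukin 5 and GM-CSF, rose by 2.33 ± 0.51 (SE, adjusted p = 0.00836 by edgeR), from 0.376 to 1.97 mean CPM. Control replicate 4 held 20 of the 29 control counts of Csf2rb, and without it the log2 fold change was 3.40. Il2rg, the common gamma chain, was the fourth to rise (0.64, adjusted p = 0.0399 by edgeR) and lost its call in 5 of 8 fits that left out a library (control replicates 1, 2 and 4 and oxPAPC replicates 3 and 4, 0.0527 to 0.113). Il7r, the receptor of interleukin 7 and TSLP, fell from 92.3 ± 20.1 to 26.8 ± 3.24 CPM (SD, n = 4 each), and Il4ra, the receptor chain for interleukin 4 and interleukin 13, had 164 ± 21.2 and 153 ± 16.7 CPM (SD, n = 4 each; log2 fold change -0.10, adjusted p = 0.727 by edgeR). The sign of Il4ra turned with scaling by library size alone (0.05).

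Of 5 tested surface receptors of Th2 cells 3 rose and 0 fell, beside 6.75% higher and 6.52% lower of all tested genes. The median log2 fold change of the 5 was 0.88. Ccr8, a chemokine receptor of Th2 cells and Tregs, had 45.3 ± 6.92 and 83.4 ± 29.7 CPM (SD, n = 4 each; log2 fold change 0.88, adjusted p = 0.0173 by edgeR). Cysltr1, a leukotriene receptor, and Havcr1, which encodes TIM-1, rose from lower levels, with log2 fold changes of 1.00 (adjusted p = 0.0303 by edgeR) and 1.95 (0.0344). All 3 calls were lost when single libraries were left out, Ccr8 when control replicate 1, control replicate 2 or oxPAPC replicate 4 was absent (0.0516 to 0.0585), Cysltr1 without 5 of the 8 (0.0504 to 0.0925) and Havcr1 without 6 of the 8 (0.0643 to 0.0942). With the replicate number as a block, Cysltr1 (0.0871) and Havcr1 (0.0584) did not pass either. Control replicate 1 held 9 of the 15 control counts of Havcr1, and without it the log2 fold change was 2.92.

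Among transcription factors of the Th2 and Th9 lists, Irf4, Irf1 and Batf had the smallest adjusted p. Of 16 tested Th2 factors 2 rose and 1 fell (median log2 fold change 0.09). Of 12 tested Th9 factors, a list that shares 4 tested genes with the former, 4 rose and 1 fell (median 0.11). Among all tested genes, 6.75% were higher and 6.52% lower. Irf4, needed for both Th2 and Th9 cytokines, had 117, 117, 110 and 134 CPM in the control and 285, 253, 414 and 336 CPM in the oxPAPC libraries, and rose by 1.43 ± 0.18 (SE, adjusted p = 0.000189 by edgeR). Batf, the partner of IRF4 on composite sites, had 14.2, 11.5, 13 and 13.4 CPM in the control and 24.5, 20.8, 25.7 and 28.4 CPM in the oxPAPC libraries (log2 fold change 0.93 ± 0.14 (SE), adjusted p = 0.000837 by edgeR). Etv5, an ETS factor of Th9 cells, rose by 1.07 (adjusted p = 0.0116 by edgeR).

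Smaller changes near the threshold followed. Junb, an AP-1 subunit, rose by 0.65 (adjusted p = 0.0458 by edgeR), a call lost without a filter (0.0508), with the block (0.116) and without each library other than oxPAPC replicate 2. Smad3, a TGF-beta transducer, fell by 0.45 (adjusted p = 0.0420 by edgeR), and Tcf7, which promotes Gata3, fell by 0.61 (0.0439). Both lost the call with RLE scaling (0.0567 and 0.0578), with scaling by library size (0.347 and 0.224), without a filter (0.0562 and 0.0548) and with the block (0.0663 and 0.0632), and each lost it in 6 of 8 fits that left out a library (Smad3 at 0.0577 to 0.137, Tcf7 at 0.059 to 0.132). Stat6, the transducer of interleukin 4, had 131 ± 21 and 142 ± 46.0 CPM (SD, n = 4 each; adjusted p = 0.774 by edgeR), and Stat5a, Stat5b and Maf had log2 fold changes of -0.09, -0.41 and 0.30 (0.822, 0.184 and 0.264). Spi1, which encodes PU.1, was too low to be tested, at 0.217 and 0.450 mean CPM.

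Factors known to oppose GATA3 or the type 2 genes moved in both directions, 3 up and 3 down of 9 tested, with a median log2 fold change of -0.02. Among all tested genes, 6.75% were higher and 6.52% lower. Tbx21, which encodes the Th1 factor T-bet, had 4.66, 4.07, 3.66 and 4.74 CPM in the control and 20.4, 17.1, 30.3 and 17.0 CPM in the oxPAPC libraries, and rose by 2.31 ± 0.21 (SE, adjusted p = 1.98e-05 by edgeR). Eomes, a related T-box factor, and Zbtb32, a repressor of GATA3, rose by 1.51 (adjusted p = 0.000659 by edgeR) and 1.11 (0.00188). Bcl6, the follicular helper factor, Sox4 and Zfpm1, which encodes the GATA cofactor FOG-1, fell by 1.18 (adjusted p = 0.00554 by edgeR), 0.95 (0.00863) and 0.85 (0.0259), and Zfpm1 lost its call with scaling by library size (0.0657), with the block (0.105) and in 5 of 8 fits that left out a library (0.0671 to 0.0855).

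With all libraries, no partner of the flanking genes passed the test. Of all tested genes 13.3% were called, so few calls would be found in lists of this size. Of the other genes of the RAD50 complex and its kinase, Mre11a, Nbn and Atm, 0 passed edgeR's test, 0 were under an unadjusted p of 0.05 and 0 passed with DESeq2. Their log2 fold changes were -0.08, 0.02 and -0.05, and each of these signs turned under at least 1 alternative setting. Of the other kinesin-2 subunits, Kif3b, Kif3c and Kifap3 had log2 fold changes of -0.03, -0.41 and -0.26, and 0 passed (edgeR adjusted p of 0.925, 0.12 and 0.411; DESeq2 called 0). Of these, 1, Kif3c, had an unadjusted p under 0.05 and passed when control replicate 3 was absent (adjusted p = 0.029 by edgeR), and the sign of Kif3b turned with scaling by library size (0.10). Of 11 chromatin and loop factors described at the locus 0 passed edgeR's test, beside 13.3% of all tested genes, with a median log2 fold change of -0.21. Satb1 (-0.38, adjusted p = 0.0866 by edgeR) was the 1 gene at an unadjusted p under 0.05 and the 1 that DESeq2 called.

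**Figure D4:**
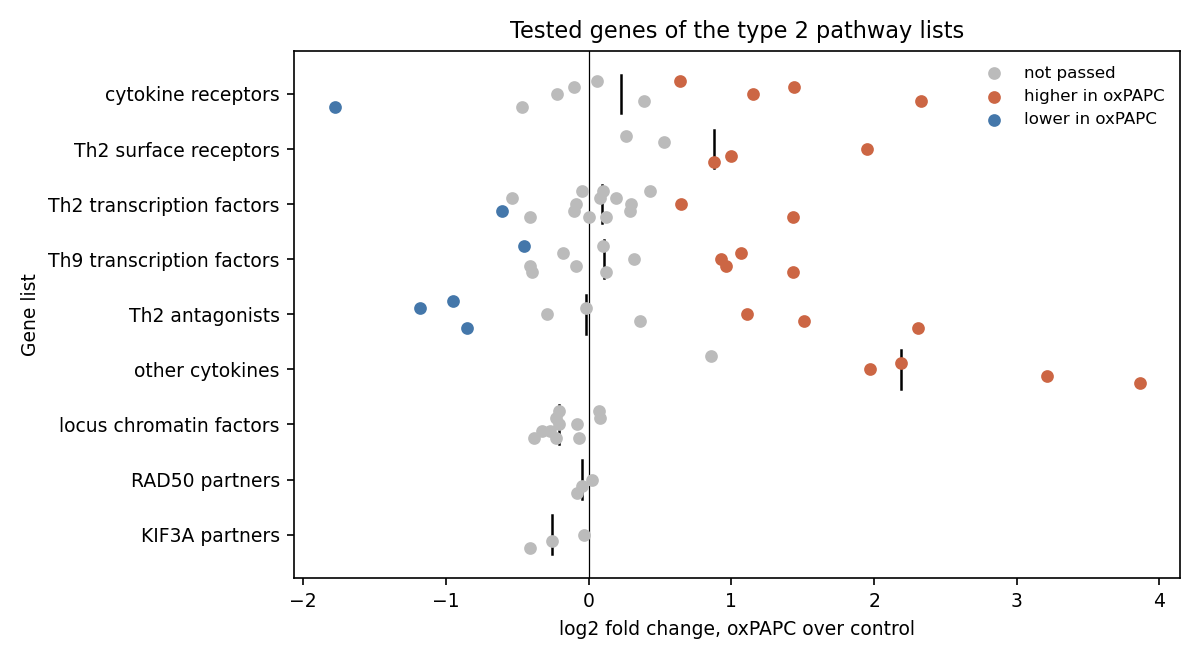
Log2 fold change, oxPAPC over control, of every tested gene in the 9 pathway lists, coloured by edgeR's call, with a line at each list's median. The other cytokines have a median of 2.19, but Il3, Csf2, Il10 and Il4 were tested because of the group in which they are high. The medians of the transcription factor and partner lists lie between -0.26 and 0.11.

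Markers of other cells that make these cytokines were measured beside them. Of 7 mast cell markers, Kit and Hdc were in the table. Their sum, most of it Kit, was 19.1 to 27.8 CPM in control and 11.9 to 16.9 CPM in oxPAPC libraries. Kit was lower (log2 fold change -0.72, adjusted p = 0.0150 by edgeR). The other 5, among them Cpa3 and Fcer1a, and the 5 basophil markers had no entry in the count table. All genes it holds reach 5 counts in 2 libraries or more, and no level can be given for these markers. Of 6 markers of type 2 innate lymphoid cells 4 were tested, and 1, Il1rl1, rose, where 6.75% of all tested genes were higher. Their sum was 70.9 to 88.7 CPM in control and 78.4 to 101 CPM in oxPAPC libraries, most of it Rora, which T cells also express.

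Markers of lymphocytes other than CD4+ T cells were low and in part higher, where 6.75% of all tested genes were higher. Of 5 B cell markers 3 rose, and their sum went from 9.52 to 14.5 CPM in control libraries to 15.2 to 18.1 CPM in oxPAPC libraries. Of 2 CD8 markers 1 rose (sums of 6.72 to 8.90 and 10.9 to 18.7 CPM), and of 2 tested markers of natural killer T and gamma delta T cells, Zbtb16 and Blk, 2 rose (sums with Trdc of 2.04 to 2.66 and 4.06 to 6.02 CPM). Trdc, the gamma delta receptor gene, was too low to be tested and went the other way, from 0.701 to 0.352 mean CPM. Of 4 tested myeloid markers 1 rose, Mpeg1, from 0.203 to 4.02 mean CPM, while Lyz2, Csf1r and Cd68 did not pass (sums of the list of 3.77 to 4.80 and 9.09 to 11.3 CPM). Mpeg1 had at most 0.377 CPM in control libraries, under the filter level of 0.575, so it was tested because of the group in which it is high. Blk, Ms4a1 and Pax5 lay above that level in every oxPAPC library but not in every control library (lowest control values of 0.226, 0.184 and 0.322 CPM). Tyrobp, the 1 tested natural killer marker, had 0.230 to 1.28 and 0.304 to 1.12 CPM. Prg2, the 1 eosinophil marker in the table, had at most 0.151 CPM in the control and 0.558 CPM in the oxPAPC libraries and was not tested. The part of any of these cells in the levels of Il13, Il5 and Il9 was not tested.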

How the data were processed

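Per the labels' protocols, RNA was purified on columns and poly(A)-selected before library preparation. Tools listed in the submitters' processing notes are featureCounts 2.0.2, STAR 2.7.8a and DESeq2 1.30.1, with the build GRCm38.p6; no source used here states whether counting used strand. The authors deposited whole-number counts per gene with their own comparison, which holds mean signal, log2 fold changes, ratios (fold changes), a Wald score and p-values, per the file headers. All its genes reach 5 counts in 2 libraries or more.

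From the counts, library totals of 14017583 to 21619731 were scaled by TMM, low genes were removed with filterByExpr (16434 left), and a quasi-likelihood F test (edgeR 4.0.16, R 4.3.3) compared the groups, adjusted by Benjamini-Hochberg with a threshold of 0.05. The script was tested on simulated data. Standard errors are the log2 fold change over the square root of F. Exon lengths are from GENCODE M21, with which 97.8% of identifiers and coordinates are identical. Patterns were compared on log2 CPM (prior count 2).

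The genes described and the lists were chosen with earlier results of these data known. Named genes were the 6, neighbours within 500 kb that passed or were nearest, 14 preset genes, the 3 smallest adjusted p among passing genes of each list, all partners of RAD50 and KIF3A, and the 3 closest patterns. Bcl6, Sox4, Zfpm1, Etv5, Smad3, Il2rg, Satb1, Acsl6, Dbn1 and the markers named were chosen after their values were seen. Alternatives were RLE and library size scaling, DESeq2 1.42.0, a minimum mean of 5 CPM, no filter at all, the replicate number as a block, leaving out Gm26917 and Rn7sk, each library left out, other windows and a prior count of 0.5.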

Additional observations from a re-analysis of the deposited data

Results flagged for a closer look

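Among 124 groups of 4 libraries (the 6 genes and 56 others, in each treatment), 3 had a library far from the other 3, where chance gives about 6.2 (1 in 20). For Il3 control replicate 1 stood apart at 0.798 CPM, the other control libraries having 0.276 to 0.320. Il7r had 122 CPM in control replicate 3, against 78.5 to 84.8. Stat5a had 295 CPM in oxPAPC replicate 3, against 187 to 205. None of the 3 was in Il13, Il5, Il9, Gata3, Rad50 or Kif3a.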

How the results depend on the processing

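The log2 fold changes of the 6 genes kept their sign under every alternative that gave a value, from 4.67 to 5.07 for Il13, 3.92 to 4.53 for Il5 (also its range when single libraries were left out, highest without control replicate 3), 2.11 to 2.65 for Il9, 0.09 to 0.36 for Gata3, -0.48 to -0.25 for Rad50 and -0.49 to -0.08 for Kif3a; a filter at a mean of 5 CPM removed Il5. Over all genes, 1110 were higher and 1072 lower. Scaling by library size, which moved the median log2 fold change to 0.12, called 458 lower. Leaving out single libraries gave 710 (without control replicate 2) to 1057 higher and 680 (without control replicate 2) to 1144 (without oxPAPC replicate 3) lower, with 694 lower without oxPAPC replicate 4. The replicate block gave 745 higher and 708 lower genes, and 3 lower genes of the pathway lists. The replicate numbers were not taken as pairs: deviations from group means correlated at 0.579, 0.0239, -0.377 and -0.143 for numbers 1 to 4, and 2 of 8 libraries deviated most like the one of their own number. Of the pathway genes, 11 were higher with the 5 CPM filter, 3 were lower with library size scaling, and 3 to 8 were lower when single libraries were left out (3 without control replicates 2 or 4 or oxPAPC replicates 1, 2 or 4). Of the neighbours, 2 were higher and 0 lower with the 5 CPM filter, 0 lower within 250 kb, and 7 higher and 2 lower within 1000 kb. These counts come from different numbers of tested genes, and in the main fit 6.75% of all tested genes were higher and 6.52% lower. Signs that turned were those of genes that had not passed: with library size scaling Atm (0.07), Il4ra (0.05), Kif3b (0.10), Macroh2a1 (0.02), Mre11a (0.04), Pot1a (0.07) and Stat5a (0.07), and over single libraries left out Atm (-0.11 to 0.07), Kif3b (-0.15 to 0.06), Nbn (-0.06 to 0.08), Pot1a (-0.15 to 0.08), Srp54c (-0.08 to 0.31), Stat5a (-0.26 to 0.02), Stat6 (-0.09 to 0.25), Taf3 (-0.06 to 0.12) and Zwilch (-0.20 to 0.12). Of 29 named genes that passed, 19 passed under every alternative that gave them a value. The filter at a mean of 5 CPM removed genes of low level, Il3 and Il10 among them. Beyond the smaller sets of genes or samples in these alternatives, the cause was not tested. Depth limits Il5, with 10 counts over the 4 control libraries.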
